A study of Homo sapiens with 8 samples.

Results

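The genes described here are 33 mitosis and G2-M genes, chosen by symbol from a gene table of 58735 genes. They serve the last part of the cell cycle, from the decision to enter mitosis to the separation of the daughter cells. All 33 were found in the table and all 33 passed the filter on low counts, which left 15084 genes to test. The study is about exosomes of macrophages and the transfer of their microRNA to intestinal epithelial cells, for which Caco-2, a colorectal carcinoma line labelled wild type, stood in. Untreated cells, which per the protocol received PBS, gave 3 libraries (untreated 1 to 3). Cells given M2-exo gave 3 more (M2-exo 1 to 3). M2-exo are the exosomes of THP-1 cells, a monocytic leukaemia line, used as M2 macrophages. The exosome samples of the series are labelled M0-exo and M2-exo. The sources used here give no dose, exposure time or state of confluence. The labels do not say whether replicates were separate cultures. The p-values below therefore rest on the variation among these libraries alone, part or all of which may be technical.

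In dividing cells, CDK1 bound to B-type cyclins drives entry into mitosis, and the kinases PLK1, AURKA and AURKB then order the steps of spindle assembly. The spindle checkpoint, with BUB1, BUB1B, TTK and MAD2L1, holds back the anaphase-promoting complex (APC/C), a ubiquitin ligase, until every chromosome is attached. The mRNAs of most of these genes build up together towards the end of the cycle, through the factors FOXM1 and MYBL2 and the MuvB complex. MuvB binds a short promoter element, the cell cycle genes homology region (CHR), and NF-Y binds the CCAAT box beside it. In the gut such genes mark the dividing cells of the crypt. Caco-2 cells divide while sparse and stop as they become confluent and take on enterocyte traits.

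Library totals ran from 15608937 to 18324599 counts, of which the 33 genes took 80156 to 91516 (0.437% to 0.567%). Mitochondrial genes took 4.16% of counts in untreated 1 and 7.01% to 8.11% in the other libraries. The epithelial markers EPCAM (334 FPKM), CDH1 (177 FPKM) and KRT8 (713 FPKM) were high, while KRT20, CDX1 and LGALS4 had means below 0.1 FPKM (fragments scaled for gene length and library size, means of 6 libraries). Of 15 macrophage markers 5 could be tested, and their summed level was 9.07 to 10.6 FPKM in untreated and 7.12 to 9.85 FPKM in treated libraries. CD68, ITGAX, TYROBP, C1QA and C1QB were at 0 in all 6. Of 10 fibroblast markers 5 could be tested, and none of 6 lymphocyte markers could. The labels give the cell type of the line as stem cells.

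The promoters are shown first because many of the 33 genes share promoter letters that the choice of genes did not use. RefSeq windows from 250 bases before to 50 bases after each start (GRCh38.p14) were held for 28 of the 33 genes, 36 windows in all. The CHR letters TTTGAA, searched on both strands, were found in 20 of these 28 genes (71.4%). Over all 27305 genes with a window the share was 18.2%. CCAAT, also on both strands, was found in 23 of 28 genes (82.1%), against 39.7% of all genes. The variant TTCGAA was found in 3 of 28, against 1.82% of all genes. Genes with several windows count once here, and a gene with more windows has more chances of a match. By window, TTTGAA was in 61.1% of the 36 and in 15.2% of all 35116. Of the 31 TTTGAA matches, counted by window, 24 began within 100 bases before or 50 bases after the start. The CDC25C matches at -30 and 44 lie in overlapping windows and are the same site. Positions were not counted over all genes.

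The 100 bases before the RefSeq start are printed for 7 genes with a TTTGAA match there and for 3 without one, CCNB1, KIF2C and CENPE. Capitals mark the letters of the CHR, its variant or a CCAAT box. A match on the other strand reads TTCAAA for the CHR and ATTGG for the CCAAT box. Matches can share letters, as a CHR and a reversed CCAAT box do at -29 and -24 in MKI67.
CCNB2, chr15:59105046-59105145, plus strand: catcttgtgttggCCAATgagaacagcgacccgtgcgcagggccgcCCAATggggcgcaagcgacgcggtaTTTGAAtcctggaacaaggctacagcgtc
PLK1, chr16:23678789-23678888, plus strand: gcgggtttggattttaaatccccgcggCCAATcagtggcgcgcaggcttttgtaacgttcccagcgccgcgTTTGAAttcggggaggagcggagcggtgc
CDC20, chr1:43358881-43358980, plus strand: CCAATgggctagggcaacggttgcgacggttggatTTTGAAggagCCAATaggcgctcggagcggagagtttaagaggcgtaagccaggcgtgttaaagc
HMMR, chr5:163460532-163460631, plus strand: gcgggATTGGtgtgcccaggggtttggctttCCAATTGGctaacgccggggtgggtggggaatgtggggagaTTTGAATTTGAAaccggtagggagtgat
MKI67, chr10:128126424-128126523, minus strand: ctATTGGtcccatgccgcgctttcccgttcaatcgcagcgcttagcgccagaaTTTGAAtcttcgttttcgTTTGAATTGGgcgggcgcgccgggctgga
KIF23, chr15:69414249-69414348, plus strand: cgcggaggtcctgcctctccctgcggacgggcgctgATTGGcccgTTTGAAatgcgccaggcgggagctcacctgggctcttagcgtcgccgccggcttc
CENPA, chr2:26785956-26786055, plus strand: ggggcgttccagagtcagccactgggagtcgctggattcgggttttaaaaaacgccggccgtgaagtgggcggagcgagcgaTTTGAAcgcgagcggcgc
CCNB1, chr5:69167050-69167149, plus strand: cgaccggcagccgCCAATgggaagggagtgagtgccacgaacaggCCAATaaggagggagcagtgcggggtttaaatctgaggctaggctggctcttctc
KIF2C, chr1:44739737-44739836, plus strand: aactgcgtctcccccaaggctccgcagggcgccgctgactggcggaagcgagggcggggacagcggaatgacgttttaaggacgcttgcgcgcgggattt
CENPE, chr4:103198344-103198443, minus strand: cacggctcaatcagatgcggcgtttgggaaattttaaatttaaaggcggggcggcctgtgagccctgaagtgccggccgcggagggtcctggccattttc

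In CCNB2 the CHR letters began 29 bases before the start and the nearest CCAAT 54 bases before it. PLK1 had the same CHR position, -29, with its CCAAT at -73. HMMR, which codes for a spindle-associated hyaluronan receptor, carried TTTGAA end to end, at -28 and -22. MKI67, the gene of the Ki-67 antigen used to count dividing cells, held matches at -47 and -29. CCNB1 had CCAAT at -87 and -55 and no TTTGAA in its window. KIF2C and CENPE had none of these motifs in theirs. Among other lists, TTTGAA was found in 33 of 47 further mitotic genes with a window (70.2%). On the strand of the gene alone the shares were 60.7% for the 33-gene list, 42.6% for the further mitotic genes and 10.2% for all genes. On both strands it was found in 1 of 31 S-phase genes (3.23%), 5 of 17 APC/C genes and 0 of 13 genes of G1 and arrest. CCAAT was found in 19 of the 31 S-phase genes (61.3%). A match is a description of letters, and no binding was measured. For the CHR only TTTGAA and TTCGAA were searched, so a window without them is not shown to lack the element.

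**Figure D1:**
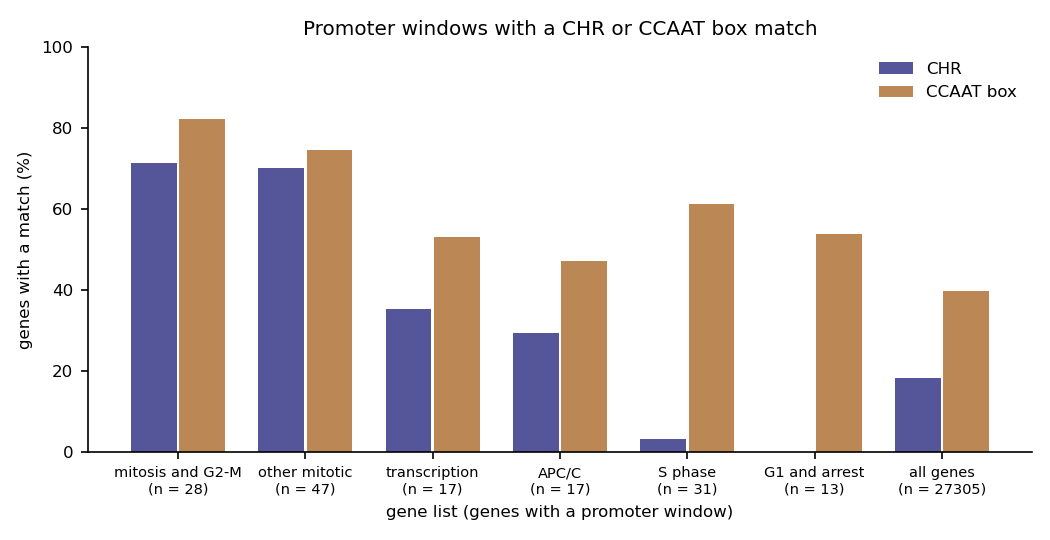
Bars give the share of genes (percent) whose RefSeq promoter window holds the CHR letters or a CCAAT box on either strand, by gene list, with the number of genes that have a window. The CHR bar is at 71.4% for the 33-gene list (28 with a window), 70.2% for further mitotic genes, 3.23% for S-phase genes and 18.2% for all genes.

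By level, most of the 33 genes were among the more abundant mRNAs of these cells. Their mean FPKM over 6 libraries had a median of 24.4, against 4.54 for all tested genes, 31 of 33 lay above the median tested gene and 14 at or above its 90th percentile. UBE2C, the ubiquitin-conjugating enzyme of the APC/C, was the highest at 143, 159 and 155 FPKM in untreated 1 to 3 and 149, 165 and 148 FPKM in M2-exo 1 to 3. TPX2, the spindle factor that activates Aurora A, followed at 143, 129 and 112 FPKM in untreated and 132, 142 and 116 FPKM in treated cells. CCNB1, cyclin B1, stood at 128, 107 and 98.5 FPKM in untreated and 125, 120.5 and 105 FPKM in treated cells. Every UBE2C value was above every TPX2 value, though the lowest UBE2C and the highest TPX2 value, both from untreated 1, round to the same 143 FPKM. The ranges of TPX2 and CCNB1 overlapped. After CCNB1 came AURKA (79.3), CDC20 (75.2), CDK1 (72.1), TOP2A (71.8) and CCNA2 (60.4 FPKM, means), each overlapping the next. In this order of levels, 26 of 32 pairs of neighbours overlapped over the 6 libraries. The breaks lay below UBE2C, CCNB1, CCNA2, ASPM, CENPE and NUSAP1.

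At the low end, CENPE, the kinesin that carries chromosomes to the metaphase plate, was at 6.46, 5.79 and 3.78 FPKM in untreated and 5.83, 6.93 and 5.95 FPKM in treated cells. NUSAP1, a microtubule-bundling protein, was at 1.81, 1.57 and 1.55 FPKM in untreated and 1.82, 1.57 and 2.13 FPKM in treated cells. PRC1, which bundles the microtubules of the central spindle, was the lowest at 0.204, 0.151 and 0.211 FPKM in untreated and 0.161, 0.145 and 0.140 FPKM in treated cells. PRC1 rested on 14 to 21 counts a library and NUSAP1 on 79 to 111, against at least 507 counts in every library for each of the other 31 genes. The mean FPKM of UBE2C was 908 times that of PRC1.

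PRC1 and NUSAP1 were also the only 2 of the 33 genes whose span was covered over at least 90% by another protein-coding gene on the same strand. PRC1 (ENSG00000198901) lies on chromosome 15 from 90966038 to 90995629, minus strand, in the GRCh38 coordinates of the table, and AC068831.7 covers 99.5% of it. AC068831.7 had 80 to 146 counts a library. NUSAP1 (ENSG00000137804) lies on chromosome 15 from 41332694 to 41381050, plus strand, and AC087721.2 covers 99.4% of it, with 0 counts in all 6 libraries. How reads that match several genes were treated is not given in the sources used here, and the part of these overlaps in the low counts was not tested. CENPA shares 46.1% of its span with SLC35F6 on the same strand and held 507 to 648 counts. In all, 19 of the 33 genes overlap another gene of the table at some point, 4 of them a protein-coding gene on the same strand. The other overlaps are on the opposite strand or with genes that are not protein-coding. The part of these overlaps in the values was not tested.

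**Figure D2:**
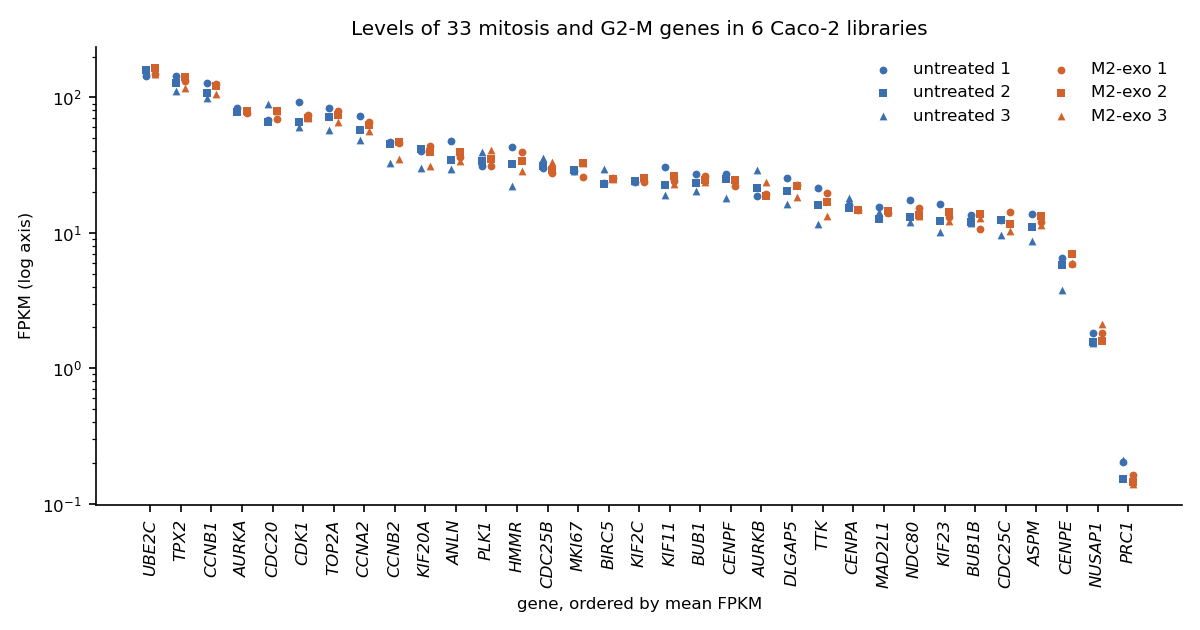
Each point is the deposited FPKM of a gene in 1 library (log axis), genes ordered by mean, circles, squares and triangles for replicates 1, 2 and 3, blue for untreated and orange for M2-exo. UBE2C leads at a mean of 153 FPKM, and CENPE (5.79), NUSAP1 (1.74) and PRC1 (0.169) stand below the rest.

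In the comparison of M2-exo treated with untreated cells, none of the 33 genes was called different. None passed an adjusted p of 0.05 in edgeR's quasi-likelihood test, and none had an unadjusted p under 0.05 (lowest 0.315; also 0 by DESeq2 and by limma-voom). Over all 15084 genes tested the share called was 0%, and an unadjusted p under 0.05 was reached by 0.736%. The adjusted p was 0.9999 for each of the 33. Log2 fold changes, M2-exo over untreated, ran from -0.34 for PRC1 to 0.22 for CENPE with a median of 0.02, against a median of -0.01 for all tested genes. The median size of the change was 0.04, against 0.10 for all tested genes and 0.08 for those with a mean of at least 5 CPM (library-size scaled counts, with TMM factors). Above 0 were 23 of 33, where 47.1% of all tested genes were above 0. That count rested on single libraries: it was 12 without untreated 3 and 15 without M2-exo 2, where 50.8% and 48.5% of all tested genes were above 0.

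The intervals say how large a difference could have gone unseen. The 95% interval of the fold change stayed within 2-fold in either direction for 32 of 33 genes, PRC1 being the exception, against 75.8% of all tested genes and 94.7% of those with a mean of at least 5 CPM. It stayed within 1.5-fold for 28, the others being PRC1, NUSAP1, CENPE, HMMR and AURKB, against 45.2% and 62.5% of these genes. In tables simulated from these libraries, changes of 2-fold were called in 43.3% and of 1.5-fold in 3.06% of genes. There each gene was drawn independently, so shifts shared by many genes of a library were not simulated. The changed genes had a mean of at least 5 CPM, which PRC1 (0.94 CPM) did not reach. In bulk samples, a smaller share of dividing cells and less mRNA in each dividing cell cannot be told apart.

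Among the 8 genes of mitotic entry, log2 fold changes lay between -0.11 (CDC25B) and 0.07 (CCNB1), and 5 were above 0. CDK1, the mitotic kinase, stood at 367, 258 and 242 CPM in untreated and 296, 275 and 279 CPM in treated cells (log2 -0.03, SE 0.17). The highest and the lowest of these 6 values were both from untreated cells. CCNB1 was at 332, 276 and 255 CPM in untreated and 323, 309 and 271 CPM in treated cells (log2 0.07, SE 0.15), with the treated values inside the untreated range. PLK1, a kinase of centrosome maturation and mitotic entry, was at 150.4, 161 and 191 CPM and at 149, 168 and 197 CPM (log2 0.03, SE 0.16), nearly the same set of values in both groups. AURKA, the spindle pole kinase, was at 246, 228 and 238 CPM and at 226, 233 and 233 CPM (log2 -0.04, SE 0.12). Its SD of log2 CPM over the 6 libraries, 0.045, was the lowest of the 33 genes, beside 0.047 for KIF2C. The other cyclins gave log2 0.02 (CCNB2) and 0.04 (CCNA2), and the phosphatase CDC25C, which activates CDK1, gave 0.06.

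All 6 genes of the spindle checkpoint and the APC/C lay above 0, by at most 0.07 (BUB1), with BUB1B below 0 when scaled by total counts alone. Leaving out any single library put at least 1 of them below 0. UBE2C gave log2 0.01 (SE 0.12), CDC20, the APC/C activator, 0.02 (SE 0.16), MAD2L1 0.01 (SE 0.14) and BUB1B 0.00 (SE 0.16). TTK, the kinase that starts checkpoint signalling, ranged more widely, with 99.3, 73.6 and 54.1 CPM in untreated and 90.8, 77.3 and 61.0 CPM in treated cells (log2 0.01, SE 0.24). Its groups had nearly equal means, 75.7 ± 22.7 and 76.4 ± 14.9 CPM (SD, n = 3 each).

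At centromere and kinetochore, CENPE stood at 61.9, 54.8 and 36.1 CPM in untreated and 55.7, 65.6 and 56.7 CPM in treated cells. Its log2 fold change was 0.22 (SE 0.21), and 0.04 without untreated 3, the library with the lowest value. CENPA, the histone variant that marks centromeres, was at 32.4, 30.5 and 36.5 CPM in untreated and 29.6, 29.1 and 30.2 CPM in treated cells (log2 -0.16, SE 0.16). It was the only 1 of the 33 genes whose groups did not overlap, with treated values lower, where 2.30% of all tested genes had such an order. The gap between the groups was narrow, 30.5 against 30.2 CPM, and the log2 fold change was -0.07 without untreated 3. No gene of the 33 lay higher without overlap, against 1.65% of all tested genes. CENPF and NDC80, proteins of the outer kinetochore, gave -0.01 and -0.02.

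In the chromosomal passenger complex, which corrects faulty attachments, the kinase gene AURKB was at 42.8, 48.2 and 66.1 CPM in untreated and 43.6, 42.0 and 53.3 CPM in treated cells (log2 -0.18, SE 0.20). Without untreated 3, its highest value, the log2 fold change was 0.04. BIRC5, survivin, stood at 97.4 ± 14.3 and 96.6 ± 1.60 CPM (SD, n = 3 each, log2 -0.01). All 7 spindle genes lay above 0 under every scaling tried, from 0.01 (DLGAP5) to 0.16 (NUSAP1), but KIF11, TPX2, HMMR and DLGAP5 lay below 0 without untreated 3. That was not the only such setting: of 15 alternatives, KIF11 and DLGAP5 were below 0 in 3, and TPX2 and HMMR in 2. HMMR was at 170.2, 127 and 88.8 CPM in untreated and 157, 135 and 113 CPM in treated cells (log2 0.07, SE 0.23), so that the untreated range enclosed the treated one. ASPM, a spindle pole protein, was at 151, 121 and 96.2 CPM and at 133, 145 and 126 CPM (log2 0.13, SE 0.18), and its log2 fold change was 0.00 without untreated 3. TPX2 was at 523, 465 and 407 CPM and at 479.7, 511 and 424 CPM (log2 0.02, SE 0.14). NUSAP1 was at 5.27, 4.53 and 4.50 CPM and at 5.29, 4.54 and 6.19 CPM (log2 0.16, SE 0.23), with its highest value in M2-exo 3.

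Of the 4 genes of cytokinesis, KIF20A, KIF23 and ANLN gave log2 fold changes of 0.04, 0.03 and -0.02. PRC1 was at 1.14, 0.839 and 1.18 CPM in untreated and 0.900, 0.804 and 0.780 CPM in treated cells (log2 -0.34, SE 0.38), overlapping through untreated 2. MKI67 was at 373, 377 and 371 CPM in untreated and 333, 420.0 and 426 CPM in treated cells (log2 0.07, SE 0.14). The untreated values of MKI67 lay close together (SD 2.64 CPM), and the treated values lay on both sides of them (SD 52.1 CPM). TOP2A, the topoisomerase that untangles sister chromatids, stood at 460.1 ± 83.7 and 473 ± 45.9 CPM (SD, n = 3 each, log2 0.04).

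**Figure D3:**
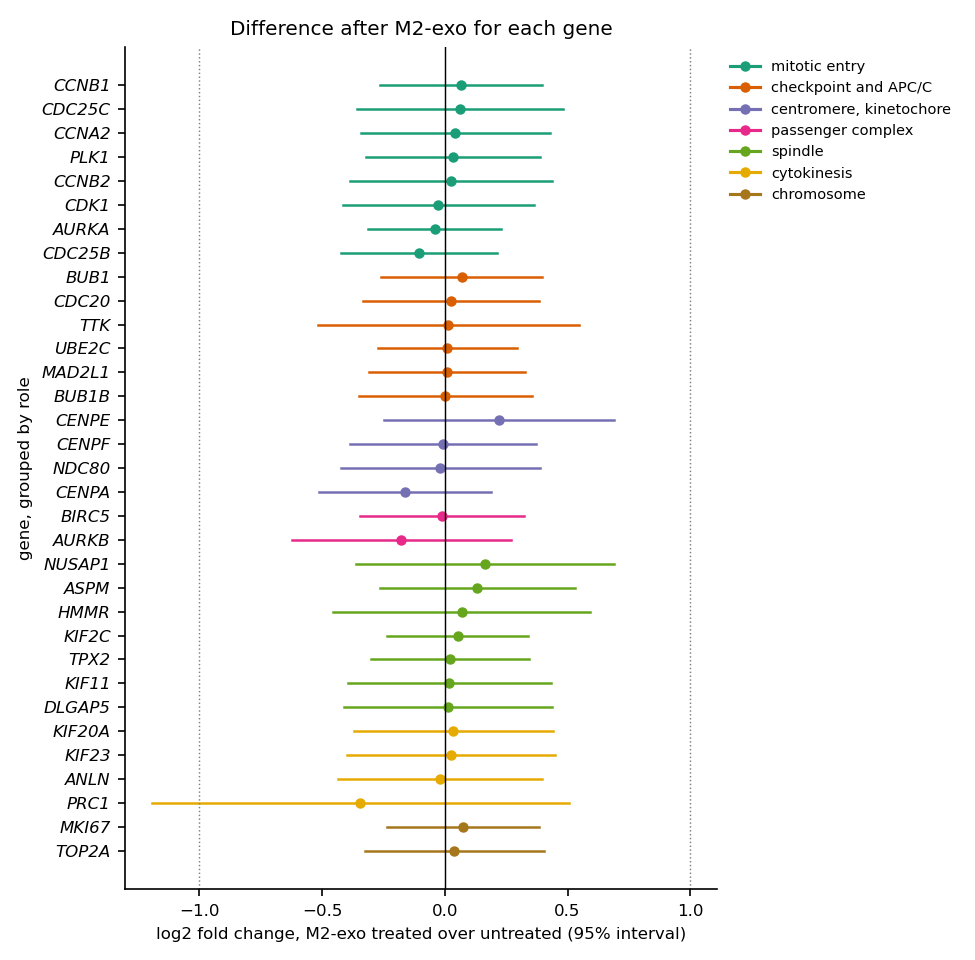
Points are edgeR log2 fold changes of M2-exo treated over untreated cells for the 33 genes, grouped and coloured by role, with 95% intervals as lines and dotted lines at a 2-fold difference. Points run from -0.34 (PRC1) to 0.22 (CENPE), every interval includes 0, and only that of PRC1 crosses a dotted line.

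By median size, libraries 1 and 3 of each group differed more than the groups did, for the 33 genes and for all tested genes. The difference between groups averages 3 libraries on each side, so these measures are unlike. From untreated 1 to untreated 3 the median size of the difference over the 33 genes was 0.41 on the log2 scale, against 0.48 over all tested genes, so its size was not greater than elsewhere. Its direction was shared by most of the genes. In 24 of 33 genes untreated 3 was below untreated 1, against 51.1% of all tested genes. The median log2 difference was -0.38 over the 33, where the median over all tested genes was -0.02. HMMR (log2 -0.94), TTK (-0.88), CENPE (-0.77), KIF23 (-0.70) and ANLN (-0.69) stood furthest below. A smaller set lay the other way: AURKB was higher in untreated 3 by 0.62, CDC20 by 0.40, PLK1 by 0.34, BIRC5 by 0.34 and CDC25B by 0.25. MKI67 (-0.01) and KIF2C (0.02), a kinesin that removes wrong attachments, were nearly level between these libraries. The 33 genes had their highest value in untreated 1 in 18 cases and their lowest in untreated 3 in 20, shares that were 30.2% and 25.6% among all tested genes. Of 33 genes, 26 varied more in untreated than in treated libraries, with a median SD of log2 CPM of 0.25 and 0.11. Among all tested genes 72.0% varied more in untreated libraries.

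Between M2-exo 1 and M2-exo 3 the median size of the difference was 0.18 over the 33 genes and 0.26 over all tested genes, so the narrower spread in treated libraries was shared by the whole table. M2-exo 3 was below M2-exo 1 in 20 of 33, with a median log2 difference of -0.08, while 50.4% of all tested genes were lower in M2-exo 3. PLK1 was higher in replicate 3 in both groups, by 0.34 in untreated and 0.40 in treated cells, and HMMR lower in both, at -0.94 and -0.47. CENPE differed, at -0.77 in untreated and 0.03 in treated cells.

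**Figure D4:**
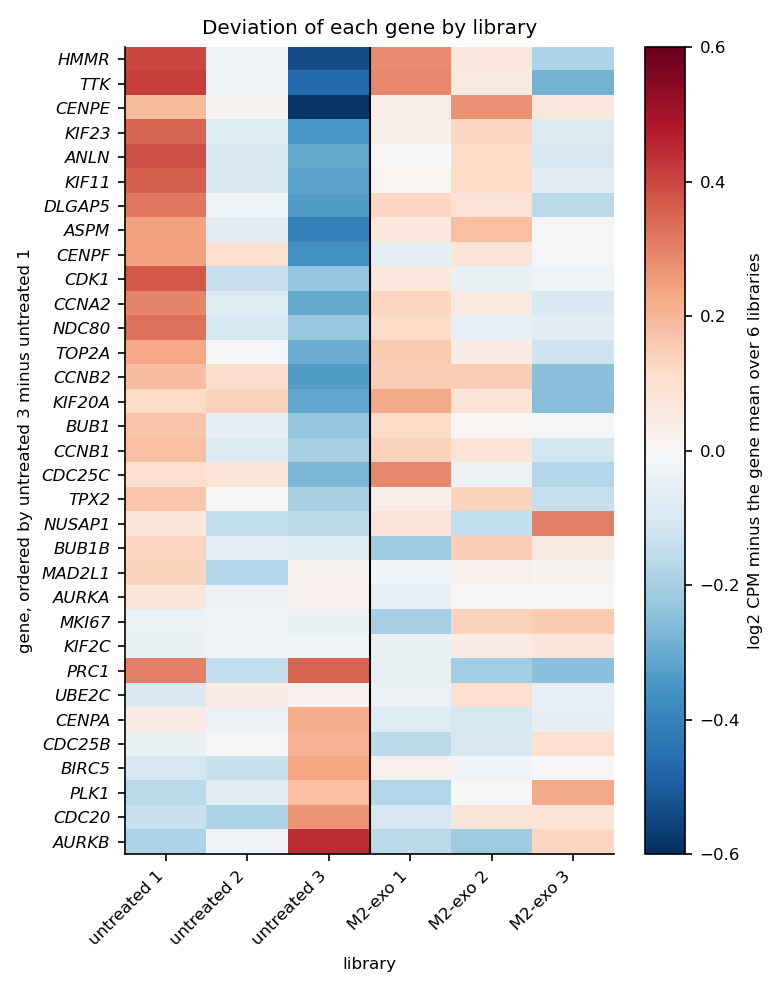
Colours give log2 CPM minus the mean of each gene over the 6 libraries, red above and blue below, with genes ordered by the difference between untreated 3 and untreated 1 and a line between the groups. HMMR to TPX2 are mostly red in untreated 1 and blue in untreated 3, while AURKB, CDC20 and PLK1 show the opposite.

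Taking all 33 genes, the median deviation from the mean of each gene was 0.17 in untreated 1 and -0.23 in untreated 3 (log2 CPM). In the other 4 libraries it lay between -0.05 and 0.06. Summed over the 33 genes, the level was 1390.5, 1250.2 and 1179 FPKM in untreated 1 to 3 and 1305, 1337 and 1227 FPKM in M2-exo 1 to 3, so the treated sums fell inside the untreated range. Other measures also differed between these 2 libraries. Epithelial markers had a median deviation of -0.21 in untreated 1 and 0.35 in untreated 3, opposite to the mitotic genes. The mitochondrial share set only untreated 1 apart, at 4.16%, while untreated 3, at 7.01%, was near the other libraries (7.48% to 8.11%). By gene length, the 16 genes above the median length of 3936 bases were at 0.21 and -0.30 in untreated 1 and 3, and the 17 others at 0.10 and -0.20. Among all tested genes, those above this length were at 0.07 and -0.04, and the shorter ones at -0.06 and 0.11. The part of length, mitochondrial share or cell state in the contrast of these libraries was not tested. By promoter, TTTGAA was held by 16 of 21 genes with a window that were lower in untreated 3 and by 4 of 7 that were higher there. Lower in untreated 3 were 24 of the 33 genes and 51.1% of all tested genes. In the other lists it was 36 of 57 further mitotic, 15 of 20 transcription, 13 of 17 APC/C and 25 of 36 S-phase genes. Of the genes of G1 and arrest it was 7 of 18. The part of the promoter letters in this contrast was not tested.

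**Figure D5:**
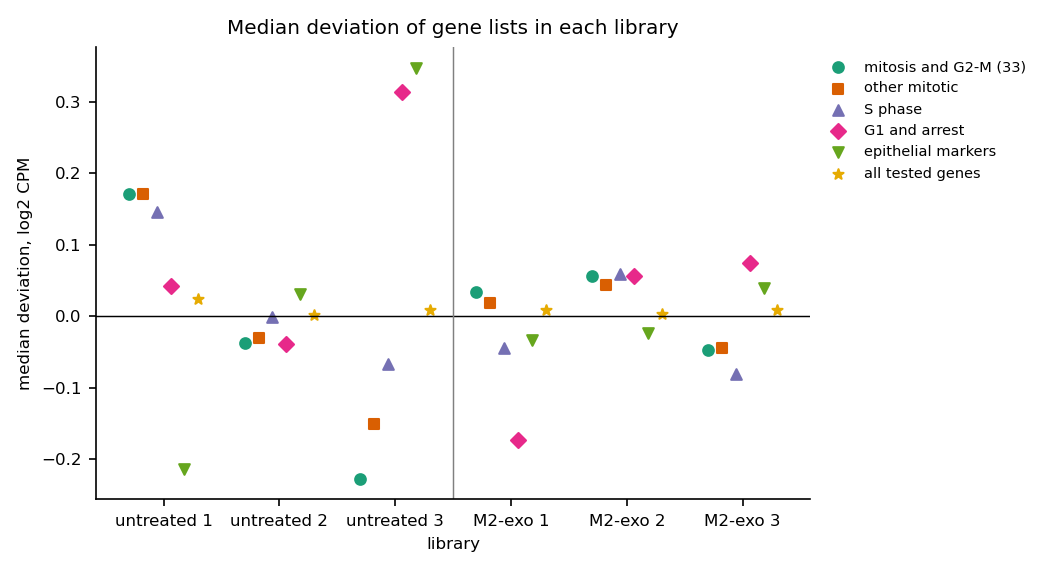
Points are the median deviation of log2 CPM from the mean of each gene, for 6 gene lists in each library. The 33 genes lie at 0.17 in untreated 1 and -0.23 in untreated 3, epithelial markers at -0.21 and 0.35, and all tested genes at 0.02 and 0.01.

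The rest of the cell cycle was read from 5 lists of genes outside the 33, and no gene of these lists passed the test. Of 57 further mitotic genes, 31 had a log2 fold change above 0 and 26 below, with a median of 0.01. They included the passenger subunits INCENP (0.12) and CDCA8 (0.09), securin PTTG1 (0.07), separase ESPL1 (0.06), the kinetochore scaffold KNL1 (0.02) and the CDK1 inhibitor kinases WEE1 (0.01) and PKMYT1 (0.27, SE 0.50). Of 20 tested genes of the transcription machinery, 12 lay above 0 (median 0.01), with FOXM1 at -0.06, MYBL2 at 0.01, LIN54 at 0.03, E2F1 at -0.08 and E2F7 at 0.02. Of the 17 APC/C genes, 15 lay below 0 (median -0.03), with CDC27 at -0.05, the activator FZR1 at -0.01 and the inhibitor FBXO5 at -0.02. The medians of the further mitotic and transcription genes were -0.05 and -0.02 without untreated 3. Without untreated 1 the APC/C median was 0.08, and without M2-exo 3 it was 0.03.

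Of 36 S-phase genes, 24 lay below 0 (median -0.05), with PCNA at -0.07, MCM2 at -0.03, RRM2 at 0.06, TYMS at -0.22 and CCNE1 at -0.18. Cyclin E1, which drives entry into S phase, was at 38.6, 36.7 and 36.7 CPM in untreated and 32.3, 32.7 and 34.2 CPM in treated cells (log2 -0.18, SE 0.15), without overlap. Treated values were lower without overlap in 1 of the 36 S-phase genes (2.78%), near the 2.30% of all tested genes. Among the 17 APC/C genes it was also 1 (5.88%). Without untreated 1 the median of the S-phase genes was 0.03. Of 18 genes of G1 and arrest, 11 lay below 0 (median -0.09), with cyclin D1 (CCND1) at 0.01, CDK4 at -0.02, CDKN1B at -0.08 and CDKN1A at -0.15. CDKN1A, the p53-responsive CDK inhibitor p21, was low in all libraries, with means of 2.17 CPM in untreated and 1.96 CPM in treated cells. In untreated 1 and 3 the further mitotic genes had median deviations of 0.17 and -0.15, beside 0.17 and -0.23 for the 33 genes. The transcription genes were at 0.19 and -0.17 and the APC/C genes at 0.20 and -0.13, so the shift was not limited to mitotic genes. The S-phase genes were at 0.15 and -0.07, and the genes of G1 and arrest at 0.04 and 0.31. These lists and the 33 genes share libraries, so their deviations are not independent of each other.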

How the data were processed

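The files used are gene counts and FPKM values of 6 Caco-2 libraries, as deposited by the authors, the first as whole numbers and the second scaled for gene length and library size. The submitters' processing notes list CASAVA, HISAT2 and featureCounts with GRCh38. The sources used here give no versions or strand setting, nor how multi-gene reads were handled. Another 6 sample columns, counted over the count and FPKM tables together, could not be matched to a sample and stayed unused. Exosome miRNA counts were not used here.

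Counts were fitted for the whole table with edgeR 4.0.16 (R 4.3.3), with low counts removed by filterByExpr, TMM factors and the quasi-likelihood F test, and Benjamini-Hochberg adjustment at 0.05 over 15084 genes. The SE was taken from the log2 fold change and the F value. Deviations use log2 CPM with a prior count of 2. Recovery was tested on 5 simulated tables of 15084 genes: 98.3% of 4-fold changes were called, and 44 of 72939 unchanged genes. Promoter windows are from RefSeq (GRCh38.p14), matched by symbol for 28 of 33 genes, and motif positions count from the start, -1 being the base before it, at the first letter of the match on the strand of the gene.

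The 33 genes and the lists were chosen with earlier results of these data known. Values by library are given for CDK1, CCNB1, MKI67, PLK1 and AURKA, and for the 3 highest and 3 lowest genes by fold change, the same by FPKM, and the 3 of widest spread. CCNE1, outside the 33 and not picked by this rule, is also given by library. Other genes were named by role. Alternatives were DESeq2 1.42.0, limma 3.58.1 (voom, or log2(FPKM + 1) and log2(FPKM + 0.1)), RLE factors or totals for scaling, other low-count filters (none, or mean CPM 1), the replicate block, and each library left out.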

Additional observations from a re-analysis of the deposited data

How the results depend on the processing

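None of the 33 genes was called under any of the 15 alternatives (14 for PRC1, which a mean CPM of at least 1 removed). Over all genes, 0 were called except 6 without the filter on low counts and 1 without M2-exo 2, so leaving out libraries gave 0 to 1. The number of the 33 genes above 0 ran from 12 to 26 with a library left out, at 12 without untreated 3 and 15 without M2-exo 2, and from 22 to 28 under the other settings. Their median log2 fold change ran from -0.04 to 0.13 with a library left out, against a spread between libraries of 0.15. The groups did not overlap in 1 of the 33 genes (3.95% of all tested genes), and in 2 with total counts (3.90%). With a library left out this was 2 to 8 of the 33, at 8 without untreated 1, while 8.95% to 18.1% of all tested genes did not overlap, at 18.1% without untreated 1. With the replicate number as a block, 0 genes were called over all genes and 0 of the 33, the median of the 33 was 0.03, 24 lay above 0, and an unadjusted p under 0.05 was reached by 211 genes against 111. Deviations of same-numbered libraries correlated across genes at 0.28, -0.06 and 0.48. Between numbers 1 and 3 they correlated at -0.37 and -0.42, and the other unlike numbers lay between -0.13 and 0.18. These values do not settle whether the numbers pair the samples, and the main fit left the numbers out. TTTGAA was found in 57.1% of the 28 genes before the start alone (16.1% of all genes, 48.9% of the further mitotic genes). CCAAT was found in 42.9% on the strand of the gene alone (23.3% of all genes, 51.1% of the further mitotic genes). Depth limits PRC1 and NUSAP1, at 14 to 21 and 79 to 111 counts.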
